A study of Mus musculus with 6 samples.

Results

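The genes described here are 10 splicing genes of the mouse kidney: the SR proteins Srsf2, Srsf3, Srsf5, Srsf6 and Srsf7, the SR-related matrix proteins Srrm1 and Srrm2, the kinases Clk1 and Clk4, and Luc7l. They were taken by symbol from a deposited table of 23396 genes, all 10 were found, and all 10 passed the filter on low counts that left 14354 tested genes. The set was proposed with the fold changes of the knockout comparison in view and counts as chosen by them, so that comparison is given for these genes as a description, with no test. RNA came from right kidneys of 6 male mice aged 6 months. Of these, 3 were wild-type C57BL/6N mice and 3 were C57BL/6N-Far2tm2a(KOMP)Wtsi/2J mice, homozygous for a targeted allele of Far2, a fatty acyl-CoA reductase. No other allele or treatment is given in the labels. Ribosomal RNA was removed before stranded libraries were made. Fragments assigned to genes numbered 15261362 to 20631158 per library, and within each group the libraries carry the numbers 0, 1 and 2.

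SR proteins bind exons through an RNA recognition motif and recruit the splicing machinery through a tail rich in arginine and serine. CLK kinases, in the nucleus, and SRPK kinases, mainly in the cytoplasm, phosphorylate that tail, which moves SR proteins between nuclear speckles and sites of splicing. Many SR genes limit their own output by splicing in an exon with a stop codon, which sends the transcript to nonsense-mediated decay. Clk1 and Clk4 transcripts are known to be held in the nucleus with introns unspliced and to be completed when kinase activity is low or temperature changes. Srrm1 and Srrm2 are scaffold proteins of splicing complexes and nuclear speckles, and Luc7l is related to a yeast protein of the U1 particle, which recognises the start of introns.

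Far2 itself had 40, 40 and 22 fragments in the wild-type libraries and 28, 19 and 31 in the knockout libraries. The whole-gene count does not show which exons the fragments came from, so it does not check the genotype labels. The kidney markers Umod, of the thick ascending limb, and Aqp2, of the collecting duct, were present in every library, at 2652 to 3304 CPM for Umod and 76 to 122 CPM for Aqp2 (CPM, fragment counts relative to the library total, scaled between libraries by the TMM method). Wild-type library 0 stood apart in injury and immune genes: the injury marker Havcr1 was at 21.5 CPM there and at 0.617 to 0.917 CPM in the other libraries. Summed macrophage markers were at 530 CPM in wild-type library 0 and at 304.4 and 283.7 CPM in wild-type libraries 1 and 2. In knockout they ran from 236 to 315.5 CPM, a range that holds wild-type libraries 1 and 2. All 14 tested macrophage markers had a lower mean in knockout, as did 51.7% of all tested genes, with library 0 in the wild-type mean. Their median log2 fold change was −0.41. For 3 of them the groups did not overlap, beside 6.96% of all tested genes lower without overlap. Summed tubular injury markers were at 1639 CPM in wild-type library 0, at 844 and 857 CPM in wild-type libraries 1 and 2, and from 837 to 962 CPM in knockout. For Srrm1, Srrm2, Srsf3, Srsf7, Clk1 and Clk4 the log2 fold change is therefore given below with and without wild-type library 0. Means and medians of the marker lists include that library.

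The promoters of 8 of the 10 genes were found in the RefSeq table for GRCm38.p6, and those of Clk1 and Luc7l were not. Each sequence runs from 250 bases before to 50 bases after the annotated start. Those of Srrm1, Srsf7 and Clk4 are shown 5′ to 3′ in the direction of the gene. Srrm1 had the largest difference between genotypes. Srsf7 and Clk4 had the smallest difference in pattern over the libraries, a measure given below, among pairs with a promoter. Capitals mark, on either strand, the GC box GGGCGG, the CCAAT box, the NRF1 motif, the ETS motif CCGGAAG and the cyclic AMP response element TGACGTCA.
Srrm1: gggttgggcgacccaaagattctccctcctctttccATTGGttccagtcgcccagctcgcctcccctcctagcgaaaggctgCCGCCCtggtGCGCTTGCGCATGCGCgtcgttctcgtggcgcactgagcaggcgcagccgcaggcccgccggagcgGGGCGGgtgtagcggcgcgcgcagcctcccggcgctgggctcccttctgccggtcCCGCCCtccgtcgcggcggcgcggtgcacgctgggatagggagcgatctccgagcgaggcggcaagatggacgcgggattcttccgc
Srsf7: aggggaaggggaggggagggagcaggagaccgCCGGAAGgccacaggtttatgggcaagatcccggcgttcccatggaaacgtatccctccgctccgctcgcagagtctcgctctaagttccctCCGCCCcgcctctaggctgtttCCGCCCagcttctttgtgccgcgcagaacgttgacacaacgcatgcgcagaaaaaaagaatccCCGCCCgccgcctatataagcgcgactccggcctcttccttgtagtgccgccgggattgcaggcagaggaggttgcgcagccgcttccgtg
Clk4: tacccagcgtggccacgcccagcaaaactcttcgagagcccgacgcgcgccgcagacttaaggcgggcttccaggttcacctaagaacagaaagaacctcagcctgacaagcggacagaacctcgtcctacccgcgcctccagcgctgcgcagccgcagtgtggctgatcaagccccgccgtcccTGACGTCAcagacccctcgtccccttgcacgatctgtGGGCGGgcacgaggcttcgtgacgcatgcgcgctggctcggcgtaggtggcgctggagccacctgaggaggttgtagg
They lie at chr4:135353097-135353396 on the minus strand for Srrm1, chr17:80207256-80207555 on the minus strand for Srsf7 and chr11:51262864-51263163 on the plus strand for Clk4. Motif matches overlap in places and are counted separately. The Srrm1 promoter holds 3 GC boxes, 1 CCAAT box and 2 overlapping NRF1 motifs, and its GC content is 71.7%. In Srsf7 there are 3 GC boxes and 1 ETS motif, with a GC content of 62.7%. Clk4 is the only one of the 8 genes with the full cyclic AMP response element, which 1.79% of the 32851 promoters in the table contain. A GC box was present for 6 of the 8 genes against 35.7% of all promoters, and an NRF1 motif for 2 of the 8 (Srrm1 and Srsf2) against 4.6%. None of the 8 held the E-box CACGTG (7.15% of all promoters) or the heat shock element (0.603%) in this window. The promoters of the 8 genes held 20 to 45 CpG dinucleotides, where the median of all promoters is 7. Matches were counted per gene for the set, with more than a single promoter for Srrm2, and per promoter for the whole table. The promoters were not matched for expression in kidney.

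The annotation shows what the 10 genes share outside of expression. In GENCODE M21, on GRCm38, every one of the 10 has at least 1 transcript annotated as a target of nonsense-mediated decay and at least 1 with a retained intron. Among the 12938 tested genes with a protein-coding transcript, 27.5% have a transcript of the first kind, 57.5% one of the second and 21.5% both. Clk1 and Clk4 each have 7 retained-intron transcripts, of 13 and 14 annotated, and Srrm1 has 6 of 15. Clk1 and Srsf3 have 1 protein-coding transcript each, beside 2 decay transcripts each. Altogether 38 of the 103 annotated transcripts of the set retain an intron and 17 are decay targets. The median number of transcripts per gene is 11 in the set and 5 among the tested protein-coding genes. The 2 sets of genes were not matched for expression level or length. The deposited counts add up fragments over the whole gene, so they do not separate productive from decay or intron-retaining forms.

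**Figure D1:**
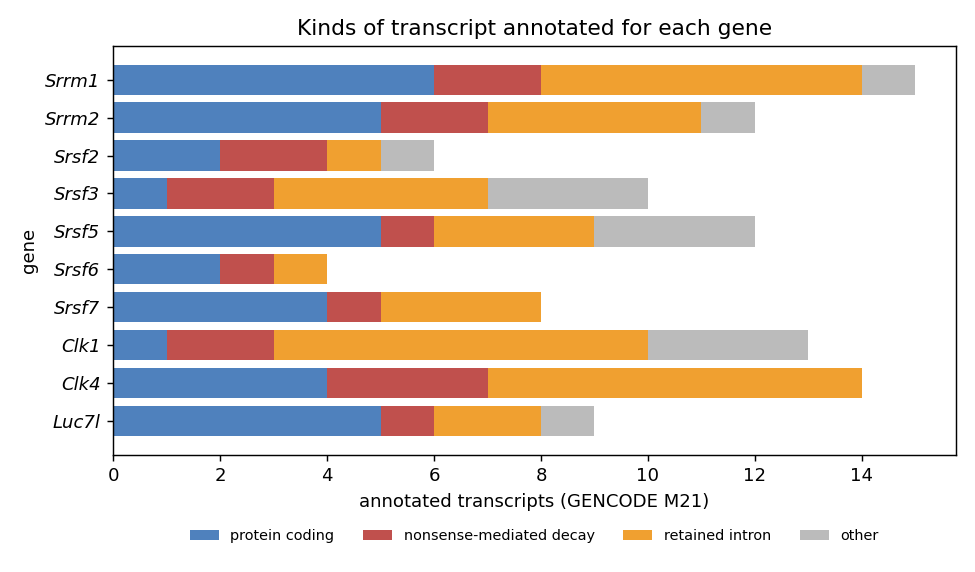
Number of annotated transcripts (x axis) for each of the 10 genes (y axis), coloured by kind in GENCODE M21. All 10 bars contain both a nonsense-mediated decay and a retained-intron segment, with the most retained-intron transcripts, 7, in Clk1 and Clk4.

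On the deposited FPKM scale, which divides by transcript length and so allows genes to be compared, the levels of the 10 genes differed widely. Srsf5 was the most abundant, at 114 ± 9.15 FPKM (SD over all 6 libraries, n = 6). Next came Srsf2 at 62.4 ± 5.02 FPKM, and every library of Srsf5 was above every library of Srsf2. Srsf3, at 48.6 ± 4.67 FPKM, and the kinase Clk1, at 46.8 ± 4.82 FPKM, overlapped and could not be ordered. Srsf6 followed at 33.2 ± 1.83 FPKM, clear of its neighbours on both sides. Srsf7 at 23.7 ± 1.37 FPKM and Srrm2 at 20 ± 2.32 FPKM overlapped. Clk4, at 14.9 ± 1.15 FPKM, was well below its paralog Clk1 in every library, overlapped Luc7l at 14.9 ± 0.863 FPKM, and overlapped Srrm2 through the low value of 1 library. Srrm1 was the lowest at 6.84 ± 1.26 FPKM, with all libraries under those of Luc7l. Part of these spreads is the difference between genotypes described below.

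**Figure D2:**
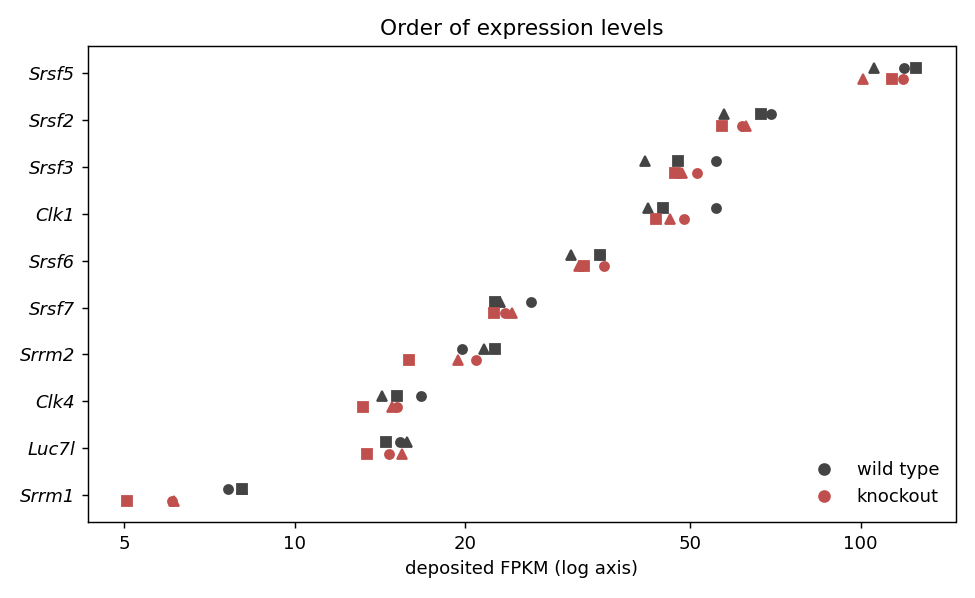
Deposited FPKM on a log axis (x axis) for each gene (y axis, ordered by mean), with 1 point per library, wild type dark and knockout red (circle 0, square 1, triangle 2). Srsf5 is highest and Srrm1 lowest in every library, and Srrm1 is the gene whose wild-type and knockout points separate.

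The comparison asks how knockout kidneys differ from wild type. Srrm1 was lower in every knockout library than in any wild-type library, and the other 9 genes overlapped between the groups. Over all tested genes, 6.96% were lower in knockout without overlap and 7.12% higher without overlap, and since the set was chosen with this comparison in view, nothing is read from its 1 of 10. The median log2 fold change of the 10 genes was −0.066, beside −0.0066 over all tested genes, and without knockout library 1 it was −0.018. The mean was lower in knockout for 7 of the 10 genes, against 51.7% of all tested genes, and 7 of the 10 had a log2 fold change of 0.1 or less in size, against 48.6%. At a Benjamini-Hochberg adjusted p under 0.05, edgeR (quasi-likelihood F test) called 0 of the 14354 genes (0%), of which 1193 (8.31%) were under 0.05 before adjustment. DESeq2 called 12 of the 15500 genes it tested (0.0774%), and 0 of these 12 belong to the set.

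Srrm1 encodes an SR-related coactivator that joins SR proteins bound to exons with the splicing machinery. In GENCODE it lies on the minus strand of chromosome 4 from 135320484 to 135353321 (ENSMUSG00000028809.16), and no other deposited locus overlaps it. Its level was 30.9, 33.6 and 35.3 CPM in the wild-type libraries and 25.2, 20.6 and 25.2 CPM in the knockout libraries, from 310 to 709 fragments. The highest knockout library was thus below the lowest wild-type library, which was library 0. The wild-type mean was 33.3 ± 2.24 CPM (SD, n = 3) and the knockout mean 23.7 ± 2.67 CPM, which is 28.8% lower, with a log2 fold change of −0.49 ± 0.1 (SE). A log2 fold change this low or lower was found in 1.11% of the tested genes whose average log2 CPM was at least 2 and in 4.59% of all tested genes. The deposited FPKM showed the same separation, at 7.64, 8.06 and 8.08 in wild type and 6.08, 5.06 and 6.12 in knockout. In the authors' deposited table Srrm1 has a log2 fold change of −0.46 and a q-value of 0.0457, and it is the only one of the 10 genes marked significant there, as were 0.657% of the 13404 genes that the table tested. That table holds the same comparison on the same libraries, with which the set was chosen in view. Its mark is therefore part of the description and no separate support, and edgeR did not call Srrm1. In whole kidney, less of this RNA per cell and a smaller share of the cells that make it cannot be told apart. Means of markers of other cell types also differed between the groups, in both directions, though edgeR and DESeq2 called none of these markers. All 10 fibroblast markers had a lower mean in knockout, as did 51.7% of all tested genes, with a median log2 fold change of −0.45. For 4 of them the groups did not overlap, beside 6.96% of all tested genes lower without overlap. Their summed level was 375.2 CPM in wild-type library 0, and 264.2 and 273.9 CPM in wild-type libraries 1 and 2. In knockout it was 230.3 to 263 CPM. All 6 smooth muscle markers (177.6 to 193.9 CPM against 150.3 to 177 CPM) and all 8 podocyte markers (279.6 to 380.1 CPM against 257.5 to 326.3 CPM) also had a lower mean. The 6 tested of 8 fat cell markers all had a higher mean, with sums of 29.1 to 42 CPM in wild type. In knockout the sums were 46.5, 41.8 and 84.1 CPM in libraries 0, 1 and 2, so the high value was that of 1 library. Of the 10 proximal tubule markers 8 had a higher mean. Endothelial markers (5 lower, 4 higher) went both ways, as did those of the thick limb, distal tubule and collecting duct (4 lower, 5 higher). The part of these markers, and of the macrophage and injury markers, in the Srrm1 value was not tested. With each library left out in turn the log2 fold change lay between −0.54 and −0.40. Without wild-type library 0 it was −0.54, and without knockout library 1, the lowest, it was −0.40.

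Srrm2 is a very large SR-related protein and a scaffold of nuclear speckles. Its level was 201 CPM in wild-type library 0 and 239 and 238 CPM in libraries 1 and 2, and in knockout it was 219, 166 and 203 CPM. The groups overlapped, because the lowest wild-type library was below the highest knockout library. The means were 226 ± 21.6 CPM (SD, n = 3) and 196 ± 27 CPM, and the log2 fold change was −0.21 ± 0.11 (SE). Without knockout library 1 the log2 fold change was −0.10. Without wild-type library 0 it was −0.28, with Srrm2 then lower in all knockout libraries. Srrm2 has the longest transcript of the set, 8.86 kb, and long genes differed between the libraries as a class. Over the 768 tested genes with a transcript of 8 kb or more, the median of log2 CPM around each gene's mean was 0.097 in wild-type library 2 and −0.11 in knockout library 1, and the median log2 fold change was −0.074. For the 4325 genes of 4 to 8 kb, the class that holds Srrm1 with 4.54 kb, that median was −0.023. The part of transcript length in the Srrm1 and Srrm2 values was not tested. The deposited locus of Srrm2 is shared with Tceb2, and the strand setting of the counting is not given in the sources used here, so its count is less certain.

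**Figure D3:**
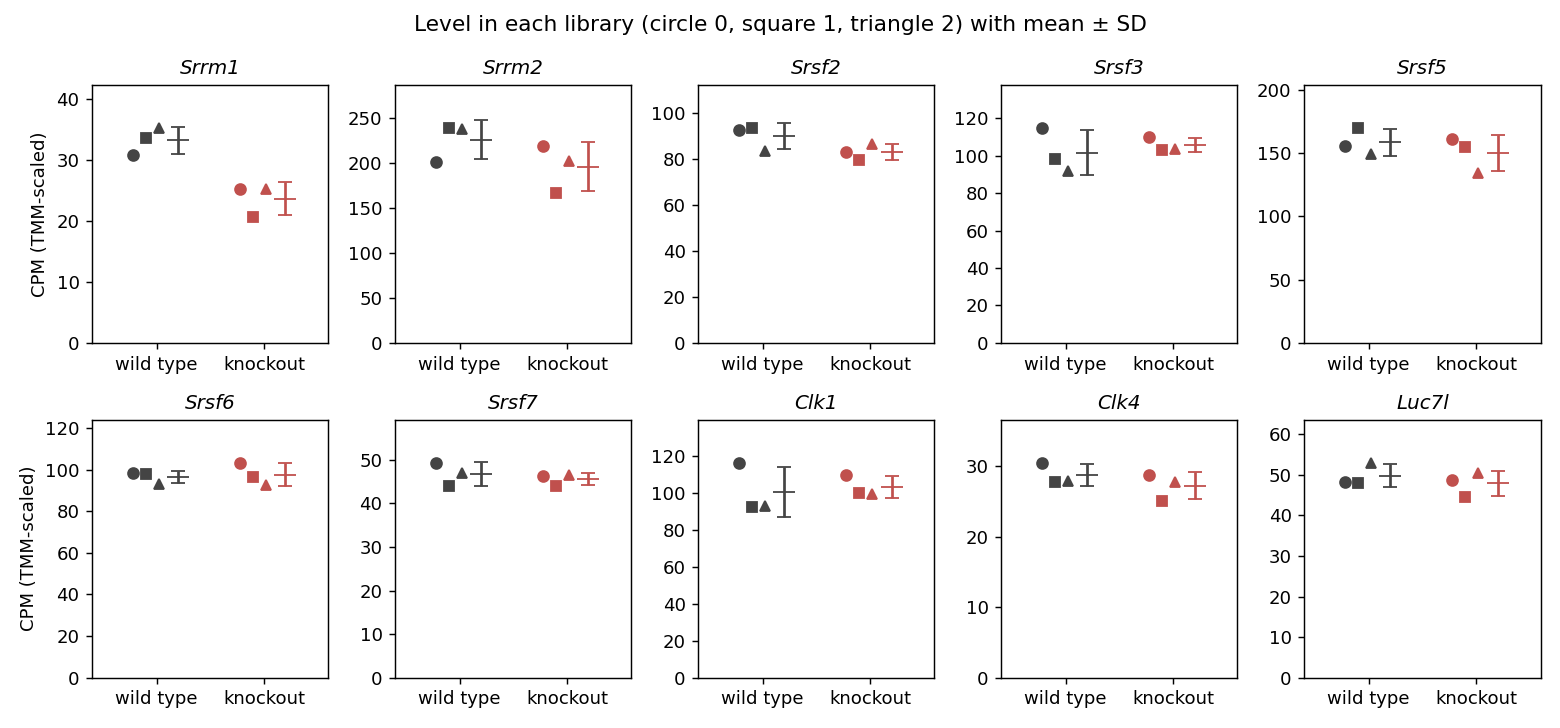
Level in CPM (y axis, from 0) of each gene in the wild-type and knockout libraries (circle 0, square 1, triangle 2), with mean ± SD of 3 libraries beside the points. The Srrm1 groups do not overlap (30.9 to 35.3 CPM in wild type, 20.6 to 25.2 CPM in knockout), and in the other 9 panels they do.

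Among the SR proteins, Srsf2 binds both purine-rich and pyrimidine-rich exon sequences and acts on splice site choice. It stood at 92.9, 93.6 and 83.4 CPM in wild type and at 83.2, 79.6 and 86.6 CPM in knockout. Wild-type library 2 lay within the knockout range while wild-type libraries 0 and 1 were above it, and the log2 fold change was −0.11 ± 0.07 (SE). Srsf3, the smallest SR protein, which also works in export of mRNA from the nucleus, stood at 114.9, 98.1 and 91.9 CPM in wild type and at 110.1, 103 and 104 CPM in knockout. Its knockout libraries lay inside the wild-type range, and the log2 fold change was 0.056 ± 0.085. Srsf5, the most abundant of the set on the FPKM scale, was at 156, 169.9 and 149 CPM in wild type and at 161.5, 155 and 134 CPM in knockout. Knockout library 2 was the lowest and wild-type library 1 the highest, with a log2 fold change of −0.078 ± 0.084.

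Srsf6, which acts on alternative exons in several tissues, was among the steadiest genes. It was at 98.2, 98 and 92.9 CPM in wild type and at 103, 96.6 and 92.5 CPM in knockout, a coefficient of variation of 4.1% over the 6 libraries. Its log2 fold change was 0.016 ± 0.065 (SE). Srsf7, the closest relative of Srsf3 in sequence and like it a factor of mRNA export, was at 49.4, 44 and 46.9 CPM in wild type and at 46.4, 43.9 and 46.5 CPM in knockout. Its coefficient of variation was 4.39% and its log2 fold change −0.035 ± 0.074. For both genes the difference between the group means was smaller than the SD within either group.

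Clk1, a dual-specificity kinase that releases SR proteins from speckles, was at 116.6, 92.6 and 92.9 CPM in wild type and at 110, 100.2 and 99.6 CPM in knockout. Wild-type library 0 was the highest, and the 2 other wild-type libraries were the lowest of the 6. The log2 fold change was 0.036 ± 0.096 (SE) over all libraries and 0.16 without wild-type library 0, where the remaining groups did not overlap. Srsf3 did the same, with a log2 fold change of 0.15 and no overlap without that library. With that library left out, 14.3% of all tested genes were higher without overlap, and 15.3% were lower. Clk4, the closest paralog of Clk1, was at 30.5, 27.8 and 28 CPM in wild type and at 28.8, 25.1 and 27.8 CPM in knockout, with a log2 fold change of −0.078 ± 0.085, and of −0.032 without wild-type library 0. Luc7l was at 48.3, 48.1 and 53 CPM in wild type and at 48.7, 44.5 and 50.5 CPM in knockout, with a log2 fold change of −0.054 ± 0.078. The ranges of both overlapped between the groups.

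Differences this small took either sign depending on the scale and the libraries used. On FPKM values Clk1 and Srsf6 had a lower mean in knockout, the opposite of their CPM means. With 1 library left out the sign changed for Clk1 (without library 1 or 2 of wild type, or library 0 of knockout), Srsf6 (without wild-type library 2 or knockout library 0), Srsf3 (without wild-type library 2) and Srsf7 (0.0068 without wild-type library 0). The sign of Srrm1, Srrm2, Srsf2, Srsf5, Clk4 and Luc7l was negative under each of the 13 alternatives, but some values were close to 0. Without knockout library 2 the log2 fold change of Srsf5 was −0.0010, and without knockout library 1 those of Luc7l and Clk4 were −0.0054 and −0.025. That of Srsf2 lay between −0.17 and −0.081 with 1 library left out.

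The 10 genes also varied among libraries in ways the genotype does not divide. Knockout library 1 was the lowest of the 6 libraries for 6 of the genes (Srrm1, Srrm2, Srsf2, Srsf7, Clk4 and Luc7l), against 22.0% of all tested genes. Wild-type library 0 was the highest for 4 (Srsf3, Srsf7, Clk1 and Clk4), against 17.1% of all tested genes. The mean of log2 CPM around each gene's own mean was 0.079, 0.043 and 0.021 over the set in the wild-type libraries and 0.028, −0.13 and −0.043 in the knockout libraries. Srrm1 itself was at −0.44 in knockout library 1 and 0.33 in wild-type library 2. GC content moved with wild-type library 1. Its median was −0.097 for the 3366 tested genes of lowest GC content, 31 to 44.9%, and 0.10 for the 3357 of highest GC content, 54.4 to 72.8%. The lowest class holds 6 of the 10 genes: Clk4 (38.8%), Clk1 (39.2%), Srsf5 (40.2%), Srsf3 (40.9%), Srsf7 (41.6%) and Srsf6 (42.8%). In wild-type library 1, Srsf5 at 0.14 and Srsf6 at 0.017 were above their own means and the other 4 below. The part of GC content in these values was not tested.

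Pairs of genes were compared by the root mean square difference of these centred log2 levels over the 6 libraries, where 0 means an equal pattern. The closest pair was Srsf3 and Clk1 at 0.039, both highest in wild-type library 0 and then in knockout library 0. Srsf7 and Clk4 came next at 0.048. Genes that both vary little also lie close by this measure, so it does not show that their levels moved together. Srrm1 and Srrm2, the pair with the large changes in knockout library 1, were 0.15 apart. Measured against the mean pattern of the set, the 5 nearest of 10735 other genes were Zeb1 (0.0049), Il10rb (0.016), Iqgap1 (0.016), Mecom (0.019) and Parl (0.021). In all, 185 genes, 1.72% of those searched, lay within 0.05.

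**Figure D4:**
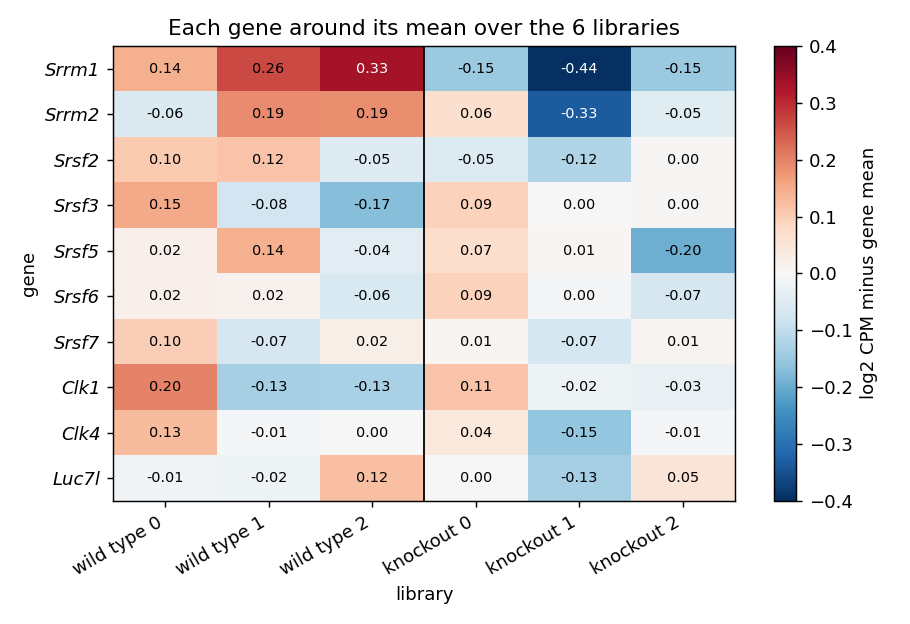
Log2 CPM minus the gene's mean over the 6 libraries (colour and printed value) for each gene (rows) and library (columns, wild type left of the line). Srrm1 is positive in all wild-type and negative in all knockout libraries, from 0.33 to −0.44, while Srsf3 and Clk1 are highest in wild-type library 0.

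Other genes of splicing were examined in further lists, and edgeR (quasi-likelihood F test, Benjamini-Hochberg adjusted) called none of them, nor did DESeq2. Of the other SR proteins 5 of 6 were tested, 0 passed, and the median log2 fold change was 0.067. Srsf4, an SR protein with a long arginine and serine tail, was at 31.6, 40.2 and 36 CPM in wild type and at 30.7, 30 and 30.6 CPM in knockout. Its groups did not overlap, and its log2 fold change was −0.24 ± 0.096 (SE; adjusted p = 0.599). Srsf9 was at 0.15 ± 0.12 (adjusted p = 0.70), with overlap. Of 34 SR-related proteins 30 were tested. Of these 22 had a lower and 8 a higher mean in knockout, with a median of −0.027, and 3 had an unadjusted p under 0.05, as did 8.31% of all tested genes. The largest differences were in Cherp, at −0.36 ± 0.15 (adjusted p = 0.599), and in Scaf4, a regulator of transcript ends, at −0.28 ± 0.10 (adjusted p = 0.599). Knockout library 1 was the lowest for both, at 9.64 CPM for Cherp and 12 CPM for Scaf4, and for both the groups did not overlap. Of the 30, 2 were lower and 1 higher without overlap, beside 6.96% and 7.12% of all tested genes.

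Among the 11 other splicing kinases, which include Clk2, Clk3 and the 3 SRPK kinases, 8 had a lower mean in knockout and the median was −0.031. None had an unadjusted p under 0.05. Clk2 was at 16.2, 17.4 and 17.3 CPM in wild type and at 17.2, 12.1 and 14.6 CPM in knockout, a log2 fold change of −0.21 ± 0.12 (SE; edgeR adjusted p = 0.629), with overlap. Dyrk1b was at −0.22 ± 0.13 (adjusted p = 0.634). The 24 tested hnRNP genes, whose proteins often oppose SR proteins at exons, had a median of −0.066, equal to that of the 10 genes to 2 digits, with Hnrnpd at −0.21 ± 0.11 (adjusted p = 0.611) and Hnrnpul2 at −0.17 ± 0.10 (adjusted p = 0.634).

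For 50 tested core spliceosome genes the median was −0.013. There 28 means were lower and 22 higher, and 3 genes had an unadjusted p under 0.05. Without overlap between groups, 3 of the 50 were lower and 4 higher, beside 6.96% and 7.12% of all tested genes. Snrpd3, a ring protein of the spliceosomal particles, was at −0.25 ± 0.087 (SE; edgeR adjusted p = 0.599), and Sf1, which binds the branch point, at −0.24 ± 0.088 (adjusted p = 0.599), both without overlap between groups. The 15 genes of the exon junction complex and of nonsense-mediated decay, the pathway that removes the decay forms of SR transcripts, had a median of −0.041, and 0 of them had an unadjusted p under 0.05. Smg9 was at −0.16 ± 0.10 (adjusted p = 0.665) and Smg1 at −0.12 ± 0.079 (adjusted p = 0.675). Of 13 genes that respond to heat or cold, 0 passed the adjusted test, 1 had an unadjusted p under 0.05, and the median was 0.061. The 17 tested core clock and clock output genes had a median of −0.024 with 0 passing and 4 with an unadjusted p under 0.05. The 17 tested immediate early genes had a median of −0.10 with 0 passing and 4 with an unadjusted p under 0.05. Beside these counts, 8.31% of all tested genes had an unadjusted p under 0.05 in edgeR.

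**Figure D5:**
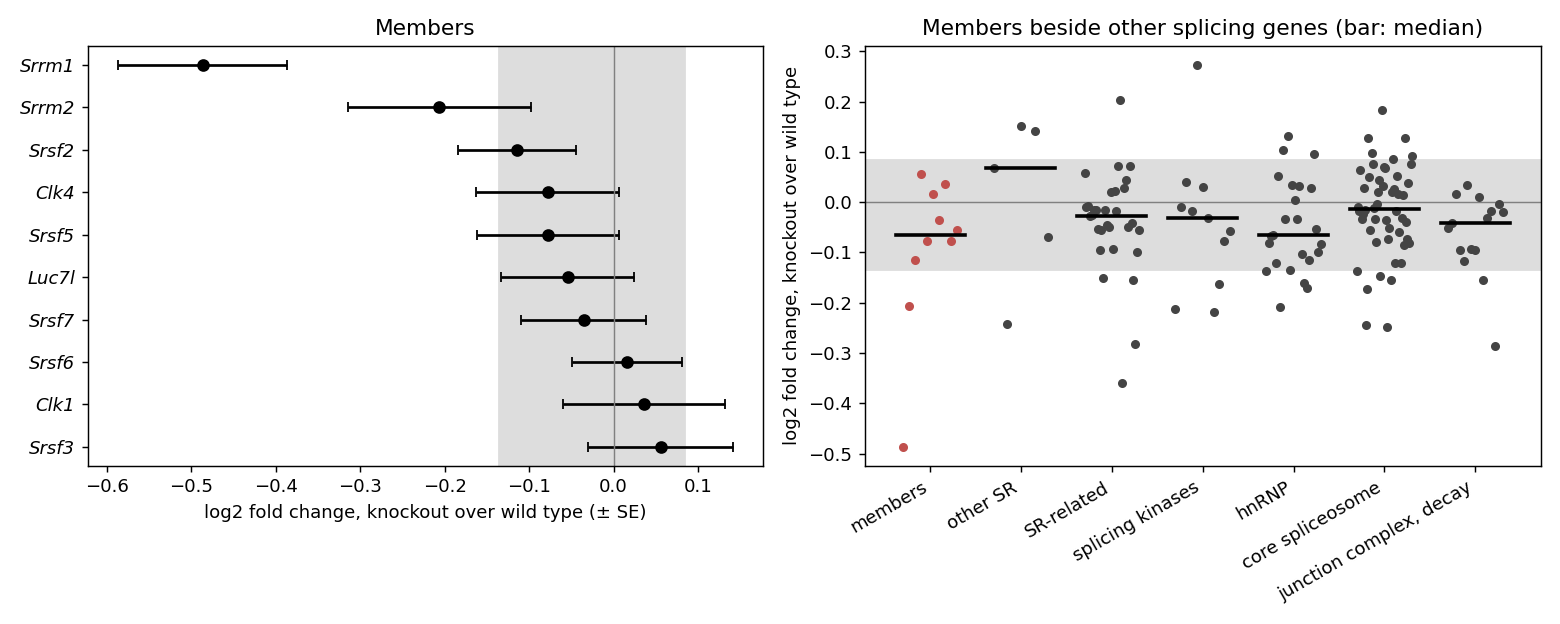
Left, log2 fold change, with negative values lower in knockout (x axis, with SE), for the 10 genes. Right, the same quantity (y axis) for every tested gene of each splicing list with the median as a bar, and the grey band in both running from the 25th to the 75th percentile of all tested genes, −0.14 to 0.085. Srrm1 at −0.49 is the lowest value of either panel.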

How the data were processed

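Stranded total RNA libraries depleted of ribosomal RNA were made from right kidneys of 3 wild-type and 3 Far2 knockout mice, per the labels' protocols. Named in the submitters' processing notes, without role or order, are Cuffdiff and Cufflinks 2.2.1, SAMtools 1.2, TopHat2 2.0.13, Bowtie2 2.2.3 and cutadapt 1.2.1, as well as mm10. Not given in the sources used here are how multiple alignments were counted, which gene models were used, and whether strand was.

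The authors deposited estimated counts of fragments per gene and library, whole except in 312 genes, which were rounded. They also deposited FPKM per library and mean FPKM per group. Per the file headers, a comparison table by the authors holds, gene by gene, the log2 fold change (knockout relative to wild type), its p-value and its q-value. Library numbers match no sample label, so each library stands for 1 mouse of its group.

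After filterByExpr and TMM scaling, genes were tested in edgeR 4.0.16 under R 4.3.3 (quasi-likelihood F test, no covariates, two-sided, Benjamini-Hochberg over 14354 genes, threshold 0.05). On simulated counts the test recovered 60.3% of genes changed 1.5-fold, 84.6% of those changed 2-fold and 100% of those changed 4-fold. Of its calls there, 9.14% were false, above the threshold of 0.05. Centred levels used log2 CPM with a prior count of 2. Alternatives were DESeq2 1.42.0, limma 3.58.1 on FPKM, other scalings and filters, and each library left out. Longest-transcript length and GC came from GENCODE M21 and were matched for 93.7% of tested genes.

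The 10 genes and all gene lists were chosen with earlier results of these data known. Named were the 10 genes, Far2, per other splicing list the 2 genes with the largest change whose average log2 CPM was at least 2, and the 5 genes with the nearest pattern; markers of kidney and injury were named after their values were seen.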

Additional observations from a re-analysis of the deposited data

How the results depend on the processing

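With 3 libraries a group, no log2 fold change of the 10 genes moved by more than its spread between libraries under any of the 13 alternatives. That spread was the SD between libraries within groups. A mean of 3 libraries can hardly move that far when 1 is left out, so for those fits the outcome was nearly fixed in advance. The signs of Clk1, Srsf6, Srsf3 and Srsf7 did change, as given above. The median over the 10 genes stayed negative, from −0.090 without knockout library 0 to −0.018 without knockout library 1, and that of Srrm1 lay between −0.54 and −0.40. edgeR with no filter on low counts called 1 gene of the whole table and DESeq2 called 12. With 1 library left out, edgeR called from 0 to 1 genes, from 1 to 2 of the 10 genes were lower in knockout without overlap, and from 0 to 2 were higher. Besides Srrm1, these were Srrm2 (lower) and Srsf3 and Clk1 (higher) without wild-type library 0, Srsf7 (lower) without wild-type library 1, Srsf2 (lower) without library 2 of either group, and Clk4 (lower) without knockout library 0. Groups of 2 against 3 also part more often by construction: 9.82% to 15.3% of all tested genes were lower without overlap there, against 6.96%, and 9.54% to 14.3% were higher, against 7.12%. No paired analysis was possible because the deposited table numbers the libraries without tying them to mice or pairs. Counting error per library was 3.76% to 5.68% for Srrm1, beside a coefficient of variation of 20% over the 6 libraries. That 20% includes the difference between the genotypes. Within groups the Srrm1 SD was 2.24 CPM around 33.3 CPM in wild type and 2.67 CPM around 23.7 CPM in knockout. It was 4.03% to 5.14% for Clk4, beside 6.26%, and 3.17% to 3.89% for Srsf7, beside 4.39%. For Clk4 and Srsf7 counting error is thus a sizeable part of the spread, and for Srrm1 it is a larger part of the spread within groups than of the 20%.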
